A study of Homo sapiens with 5 samples.

Results

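The 5 promoters described here each lie between a pair of genes named as divergent, that is, transcribed away from each other from a shared stretch of DNA: TTI2 and SNORD13, VPS52 and RPS18, EIF2B1 and GTF2H3, UBQLN4 and LAMTOR2, and SMC1A and RIBC1. They were chosen by the scores and ranks of their peaks in 3 chromatin immunoprecipitation (ChIP-seq) peak lists, so those scores are given as a description. They make up 5 of the 160271 regions into which the 3 lists merge. In ChIP-seq an antibody pulls down fragments of fixed chromatin, and stretches whose fragments outnumber those of a control are listed as peaks. All chromatin was from the human embryonic kidney line Flp-In HEK293 T-REx, built to take up transgenes at 1 site under tetracycline control, and no label names a treatment or an induced transgene. Antibodies to ASXL1 and O-GlcNAc were used on chromatin preparation 63 and the antibody to FOXK1 on preparation 62, each with 1 library called against the input of its preparation. Nothing below therefore has a replicate error or a test, the depth behind the peaks is unknown, and an effect of the FOXK1 antibody and one of its preparation cannot be told apart. The files name no genes: the genes of each interval come from the choice of the promoters, and RefSeq (GRCh38.p14) lists the partners of each pair as neighbours with 0 genes between them.

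ASXL1 is a chromatin protein that partners the deubiquitinase BAP1, which removes ubiquitin from histone H2A. FOXK1 is a forkhead transcription factor that binds DNA itself and is known to associate with BAP1. O-GlcNAc is a single sugar that the enzyme OGT places on serine and threonine of many nuclear proteins, OGT and the BAP1 partner HCFC1 among them. Divergent promoters drive a pair of genes in opposite directions from a short shared stretch that is usually rich in CG pairs. TTI2 belongs to the TTT complex that stabilises the large kinases of the mTOR and ATM family, and SNORD13 is a small nucleolar RNA that guides modification of ribosomal RNA. VPS52 is a subunit of the GARP complex, which tethers vesicles at the Golgi, and RPS18 is a protein of the small ribosomal subunit. EIF2B1 is a subunit of eIF2B, the exchange factor of translation initiation, and GTF2H3 a subunit of TFIIH, which acts in transcription and DNA repair. UBQLN4 carries ubiquitinated proteins to the proteasome, and LAMTOR2 is part of the Ragulator that anchors mTORC1 signalling at lysosomes. SMC1A is a core subunit of cohesin, and RIBC1 is a protein of ciliary microtubules.

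The stretches between the gene starts are shown because both genes of a pair read from them. RefSeq promoter windows (GRCh38.p14, 250 bases before to 50 after each start) were found for 7 of the 10 genes, namely VPS52, RPS18, EIF2B1, GTF2H3, LAMTOR2, SMC1A and RIBC1. In the 3 pairs with both windows the genes lie on opposite strands with the minus-strand gene first, as the name divergent requires. Each line gives the plus strand from the base after the start of the minus-strand gene to the base before the start of its partner. VPS52 and SMC1A have 2 listed starts each, and the one nearer the partner was used. For LAMTOR2 it gives the 250 bases before the start. These positions are in GRCh38.p14 while the peaks are in hg19, and neither was converted. Capitals mark the ETS motif CCGGAAG on either strand and, for LAMTOR2, the letters ACTANNANTCCC.
VPS52/RPS18, chr6:33271966-33272074, plus strand: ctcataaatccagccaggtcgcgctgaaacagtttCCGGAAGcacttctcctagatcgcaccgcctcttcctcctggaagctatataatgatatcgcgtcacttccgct
EIF2B1/GTF2H3, chr12:123633687-123633828, plus strand: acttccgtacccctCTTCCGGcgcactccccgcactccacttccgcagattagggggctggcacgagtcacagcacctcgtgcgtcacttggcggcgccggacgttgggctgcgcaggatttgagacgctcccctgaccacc
SMC1A/RIBC1, chrX:53422729-53422872, plus strand: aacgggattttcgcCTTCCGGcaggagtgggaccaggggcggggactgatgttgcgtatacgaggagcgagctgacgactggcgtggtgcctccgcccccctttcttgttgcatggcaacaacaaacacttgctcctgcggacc
LAMTOR2, chr1:156054532-156054781, plus strand: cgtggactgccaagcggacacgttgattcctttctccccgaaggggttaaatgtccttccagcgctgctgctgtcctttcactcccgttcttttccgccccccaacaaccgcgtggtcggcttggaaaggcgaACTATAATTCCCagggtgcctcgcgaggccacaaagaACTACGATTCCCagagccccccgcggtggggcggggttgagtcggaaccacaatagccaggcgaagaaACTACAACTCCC

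The starts of VPS52 and RPS18 are 109 bases apart by this count, those of EIF2B1 and GTF2H3 142 bases, and those of SMC1A and RIBC1 144 bases, leaving out the starts themselves. CCGGAAG, a motif of the ETS family of transcription factors, occurred once in each of these 3 stretches. In the EIF2B1/GTF2H3 and SMC1A/RIBC1 stretches it read on the minus strand, with 14 bases between it and the start of the minus-strand gene. In the VPS52/RPS18 stretch it read on the plus strand, with 35 bases between it and the start of VPS52. Over whole 300-base windows, searched on both strands, CCGGAAG was present in the windows of 6 of the 7 matched genes, against 10.3% of the 35116 RefSeq windows. VPS52, RPS18, EIF2B1 and GTF2H3 held 2 copies each, which 1.74% of all windows held or exceeded. CCGGAAG itself holds a CG pair, and both shares are over windows of any CG number. Partners share most of their window, so these 6 genes stand for 3 stretches of DNA.

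LAMTOR2 was the matched gene without CCGGAAG. Its window held ACTANNANTCCC, a loose form of the motif of the zinc finger protein ZNF143, 3 times on the plus strand, and the last copy ended at the base before the start. This looser form was chosen after the letters of the window had been seen. It was present in 1.28% of all windows and 3 or more times in 2 of them (0.0057%). The exact letters ACTACAA and ACTACA of the same motif, in 2.77% and 8.46% of all windows, occurred once, within the last of the 3 copies.

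The forkhead motif TAAACA, which 12.3% of all windows hold, was in none of the 9 windows of the matched genes, and the same was true of its longer form GTAAACA (3.42% of all windows). This says only that the letters are not in these windows. The GC box GGGCGG was in the windows of EIF2B1, GTF2H3, LAMTOR2, SMC1A and RIBC1, 5 of the 7 genes, against 45.0% of all windows. No match in the 9 windows was found for 8 further sets of letters, which differ in how common they are. Only these exact letters were searched, so near forms of a motif may be present. Of all windows, 34.6% held the CCAAT box (CCAAT), 11.5% the TATA box (TATAAA), 7.26% the E-box (CACGTG) and 3.91% the NRF1 letters GCATGCG. The share was 3.45% for the CRE (TGACGTC), 7.98% for TGACGT within it, and 5.84% and 10.7% for the YY1 letters AAGATGG and ATGGCG. CG pairs numbered 16 in the RPS18 window and 33 in that of GTF2H3, and of the genes with 2 windows VPS52 held 21 and 16 and SMC1A 21 and 34. The median over all windows was 14, and the middle 50% ran from 4 to 28. The 9 matched windows thus lay above the median, closest to it the RPS18 window and the second of VPS52.

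Peaks were counted at a promoter when they overlapped its hg19 interval or lay within 5 kb. The intervals are not independent of the peaks: their edges are those of the ASXL1 peak at EIF2B1/GTF2H3 and SMC1A/RIBC1, of the O-GlcNAc peak at UBQLN4/LAMTOR2, and of the joined peaks at the other 2 promoters. In all 27 peaks met this rule, 15 of ASXL1, 9 of O-GlcNAc and 3 of FOXK1. Of these, 13 were the highest peak of their list at the promoter and 14 were additional. The additional peaks had a median score of 82.01, and 5 of them scored at least 100. The score is the number the authors' peak caller gave each peak, with 50 as the lowest listed. Its definition is not given in the sources used here, so a higher score is read only as a higher place in the list. Scores were read within a list, since the lists are not on a common scale. Many of the highest-scoring peaks (304 of ASXL1, 49 of O-GlcNAc and 10 of FOXK1) are listed at exactly 3100, so order among those is not known. The ASXL1 and O-GlcNAc lists have the same highest score, 3233.06. Whether a peak listed above 3100 is stronger than one at 3100 is not known either.

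**Figure D1:**
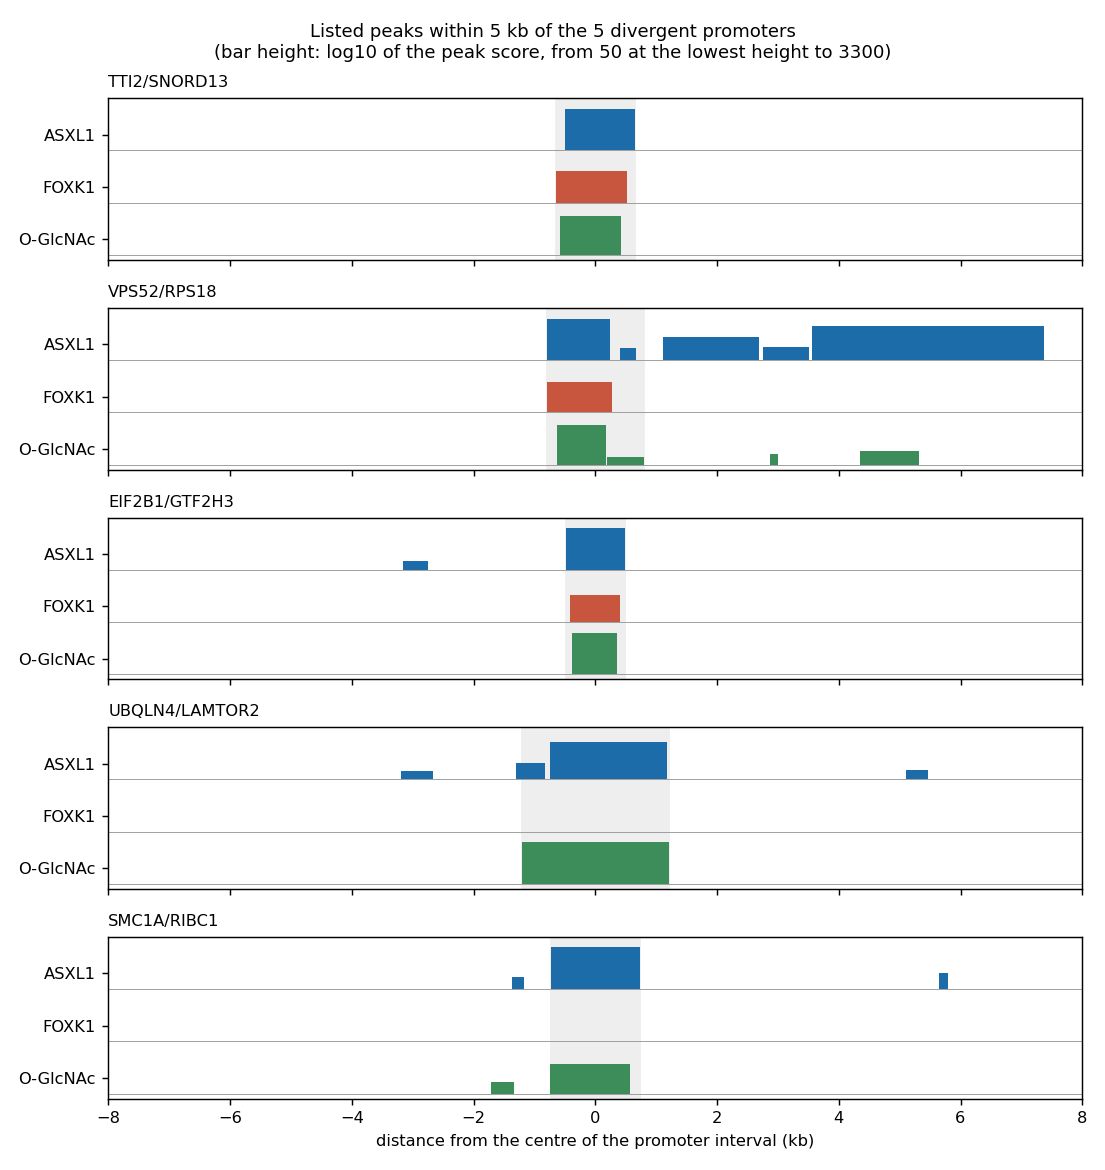
Peaks of ASXL1, FOXK1 and O-GlcNAc within 5 kb of each promoter. The x axis is the distance from the centre of the promoter interval in kb, grey shading is the interval, bar width is peak width and bar height is the log10 of the score. TTI2/SNORD13 had 3 peaks in all and VPS52/RPS18 had 10, and UBQLN4/LAMTOR2 and SMC1A/RIBC1 had no FOXK1 peak.

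TTI2 and SNORD13 shared the promoter at chr8:33370332-33371628 (hg19). The ASXL1 peak scored 3100 and was 1153 bp wide. The FOXK1 peak scored 948.5 and was 1172 bp wide. The O-GlcNAc peak scored 2353.59 and was 1005 bp wide. The FOXK1 peak ranked 102 of 21697, the highest FOXK1 rank among the 5 promoters, and the O-GlcNAc peak ranked 162 of 78825. No other peak of any list lay within 5 kb, and the nearest was an ASXL1 peak of score 57.87 at 9956 bp. By the distance to the nearest other peak of any list, this was the most isolated of the 5 promoters.

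VPS52 and RPS18 shared the promoter at chr6:33239168-33240769 (hg19), where the peaks were most numerous. The highest ASXL1 peak scored 3100 over 1040 bp, and the FOXK1 peak scored 844.17 over 1060 bp, rank 151 of its list. The highest O-GlcNAc peak scored 2473.22 over 805 bp, rank 140. The main peaks filled the lower-coordinate part of the interval. A second ASXL1 peak of score 79.75 and a second O-GlcNAc peak of score 50.18, near the lowest listed value, overlapped each other in the remaining part.

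The VPS52/RPS18 promoter was also the one with further peaks of high score close by, at higher coordinates, the side to which RPS18 is transcribed. Whether these peaks lie in RPS18 or beyond it was not determined, as no hg19 annotation was used. ASXL1 peaks of score 343.1, 101.25 and 1345.69 began 317, 1948 and 2752 bp beyond the interval, and the last was 3813 bp wide, wider than all but 0.169% of the ASXL1 list. O-GlcNAc peaks of 67.72 and 96.74 lay inside the latter 2 of these ASXL1 peaks, and FOXK1 had none.

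EIF2B1 and GTF2H3 shared the promoter at chr12:124117776-124118739 (hg19). The ASXL1 peak scored 3169.71 (rank 17 of 94237) and was 964 bp wide. The O-GlcNAc peak scored 3100 (rank between 14 and 62 of its list, because of ties) and was 755 bp wide. The FOXK1 peak scored 505.9 (rank 461) and was 822 bp wide. The ASXL1 and O-GlcNAc ranks by listed score added up to a lower sum here than in any other of the 19844 regions held by both. This held under either treatment of ties at 3100. A region on chromosome 17 (72199353 to 72200470) came next, with 3100 in both lists when tied scores took the best rank. The first place over it rests on ranking the ASXL1 score of 3169.71 above 3100, an order that is not known. The FOXK1 score was the lowest of the 3 FOXK1 peaks at these promoters. One further ASXL1 peak, of score 56.65, lay 2266 bp before the interval.

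UBQLN4 and LAMTOR2 shared the promoter at chr1:156022707-156025120 (hg19), the widest of the 5 at 2414 bp. The interval is that of its O-GlcNAc peak, which had the highest listed O-GlcNAc score (3233.06). This peak was wider than all but 0.0266% of the O-GlcNAc list. ASXL1 was listed there as 2 peaks, of score 148.23 over 478 bp and of score 1928.52 over 1928 bp. The higher-scoring of the 2 lay inside the O-GlcNAc peak, an arrangement found in 1 of the 5 promoters and in 12.3% of the regions held by both lists. Further ASXL1 peaks of score 51.61 and 63.27 lay 1465 bp before and 3892 bp after the interval. No FOXK1 peak was listed within 5 kb. The nearest one, of score 58.88, lay 8.12 kb beyond the region, where it overlapped an O-GlcNAc peak of score 52.21.

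SMC1A and RIBC1 shared the promoter at chrX:53448906-53450360 (hg19). The ASXL1 peak scored 3225.28, rank 3 of the ASXL1 list by listed score, over 1455 bp. The O-GlcNAc peak scored 757.78, rank 1810 of its list, over 1312 bp. Smaller peaks of ASXL1 (84.27) and O-GlcNAc (76.44) lay 439 and 605 bp before the interval and overlapped each other. Another ASXL1 peak, of score 131.38 and 139 bp wide, lay 4927 bp after it. FOXK1 had no peak within 5 kb, and its nearest, of score 58.15, lay 12.6 kb beyond the region and overlapped no peak of the other lists.

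**Figure D2:**
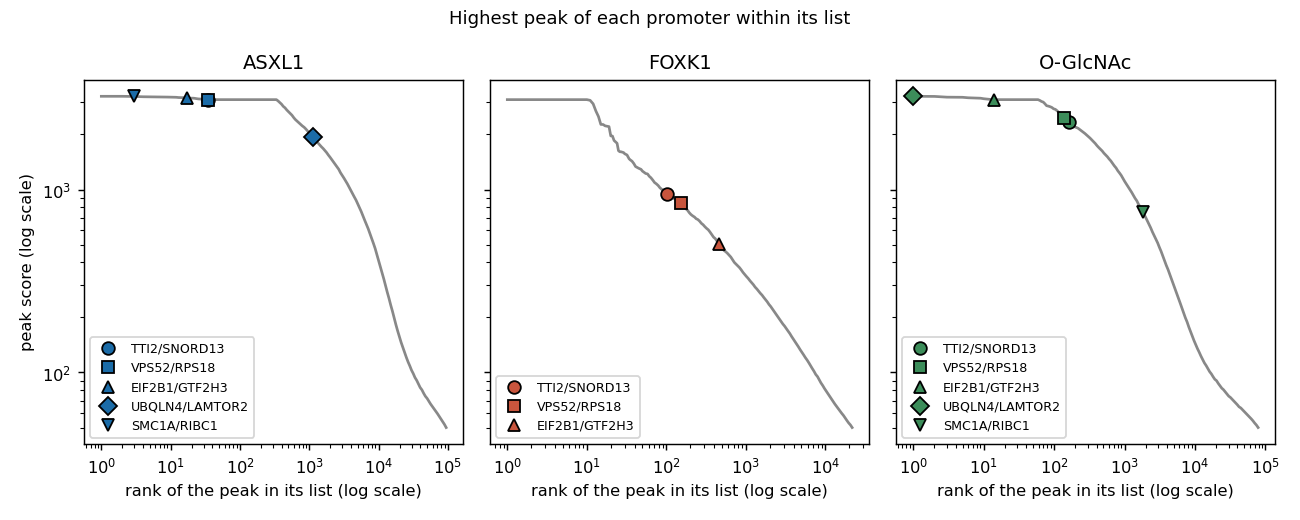
Score of the highest peak at each promoter against its rank in its list, both on log scales; the grey line is the whole list and tied scores are at their best rank, where TTI2/SNORD13 lies under VPS52/RPS18 for ASXL1. ASXL1 peaks of 4 promoters lie on the flat top of the list at 3100 or above, and FOXK1 peaks at 3 promoters lie between ranks 102 and 461.

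A FOXK1 peak was thus missing at 2 of the 5 promoters, and the other 3 were held by all 3 lists, as were 3.90% of all merged regions. The choice of the members fixed these counts, so nothing is read from them. The 4 promoters with an ASXL1 score of at least 3100 belonged to the 0.359% of ASXL1 peaks that reach it, and EIF2B1/GTF2H3 and UBQLN4/LAMTOR2 to the 0.0787% of O-GlcNAc peaks that do. Among the 338 ASXL1 peaks with such a score, 51.8% overlapped a FOXK1 peak (95% Wilson interval 46.5 to 57.1, counting error only) and 90.8% an O-GlcNAc peak (87.3 to 93.5). Over all ASXL1 peaks the shares were 10.5% and 22.4%. The 338 peaks were also wider, with a median of 2000.5 bp against 269 bp over the list. A wider peak meets an overlap of 1 bp more easily, and the part of width in these shares was not tested. The intervals treat the peaks of 1 library as independent and hold no error between libraries. They also leave out that amplified fragments without molecular identifiers are not independent. Of the 62 O-GlcNAc peaks with a score of at least 3100, 75.8% overlapped FOXK1 (63.8 to 84.8), against 11.1% of all O-GlcNAc peaks. These 62 were wider as well (median 1000 bp, against 231 bp over the list). The absence of FOXK1 at SMC1A/RIBC1 made it 1 of 163 such ASXL1 peaks without FOXK1, whose nearest FOXK1 peak lay at a median of 19.4 kb. UBQLN4/LAMTOR2 was 1 of 15 such O-GlcNAc peaks without FOXK1, for which the median was 51.7 kb.

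Where FOXK1 was present, its score was high for such places. Across the 176 regions with an ASXL1 score of at least 3100 and a FOXK1 peak, the median FOXK1 score was 150.7. The FOXK1 score exceeded that of 97.7% of these regions at TTI2/SNORD13, of 96.6% at VPS52/RPS18 and of 92.6% at EIF2B1/GTF2H3. O-GlcNAc scores were compared in the same way over the 307 regions with an ASXL1 score of at least 3100 and an O-GlcNAc peak, whose median O-GlcNAc score was 495.76. The same 3 promoters exceeded 96.1%, 97.4% and 99.3% of these regions, and SMC1A/RIBC1 exceeded 67.1%. At UBQLN4/LAMTOR2 the ASXL1 score was above 77.0% of the 61 regions with an O-GlcNAc score of at least 3100, whose median ASXL1 score was 1347.74. Since high scores in several lists at once chose the members, these figures describe the choice.

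**Figure D3:**
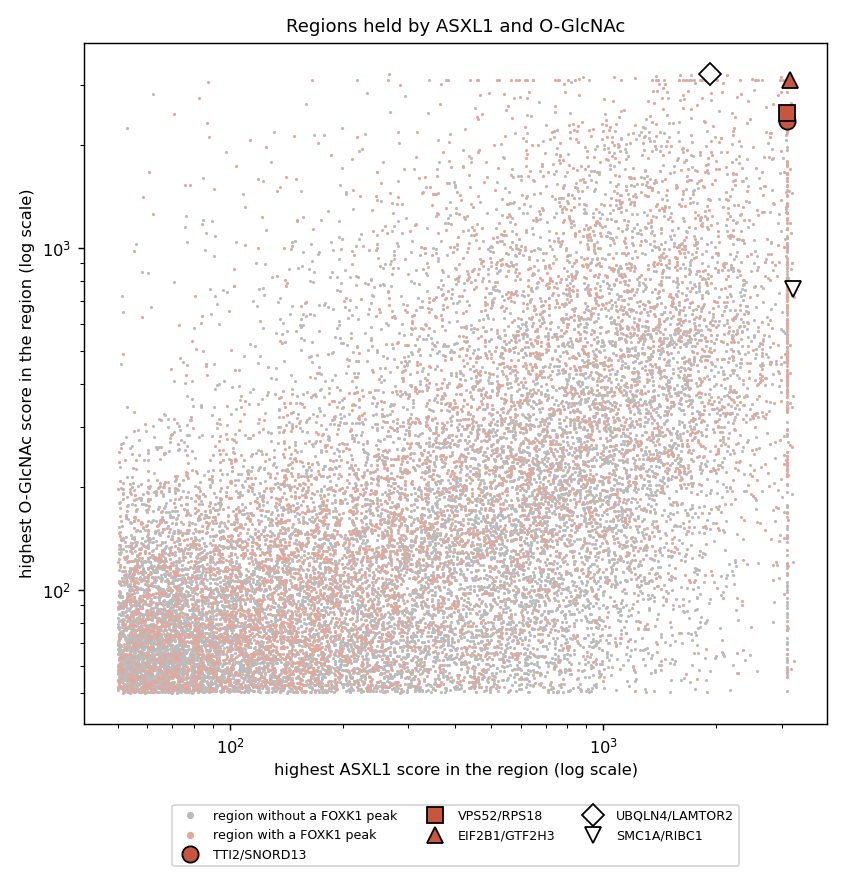
Highest ASXL1 score (x axis) against highest O-GlcNAc score (y axis), both on log scales, for each of the 19844 regions held by both lists, in light red with and in grey without a FOXK1 peak; filled symbols are promoters with a FOXK1 peak and open symbols those without. UBQLN4/LAMTOR2 sits at the top of the O-GlcNAc axis and SMC1A/RIBC1 at the right of the ASXL1 axis, at 757.78 for O-GlcNAc.

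Among regions held by all 3 lists, TTI2/SNORD13, VPS52/RPS18 and EIF2B1/GTF2H3 stood 1st, 2nd and 5th of 6247 by the sum of score ranks when tied scores took the best rank. They stood 3rd, 4th and 2nd when tied scores took the worst rank. Regions on chromosome 15 (74753090 to 74754541) and on an unlocalised contig of chromosome 7 filled the other places among the first 5 under either rule. Just outside was a region on chromosome 6 (49430501 to 49431460), where ASXL1 scored 3082.78, FOXK1 956.35 and O-GlcNAc 2139.28. Its rank sum, with tied scores at their best rank, was 672, against 492 at EIF2B1/GTF2H3.

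The main ASXL1 peaks of the 4 promoters with a score of at least 3100 were narrower than the median ASXL1 peak with such a score. The 338 ASXL1 peaks of at least 3100 had a median width of 2000.5 bp and a middle 50% from 1226 to 3618 bp. EIF2B1/GTF2H3 at 964 bp, VPS52/RPS18 at 1040 bp and TTI2/SNORD13 at 1153 bp lay below that range, with 12.4%, 16.6% and 22.2% of these peaks narrower. SMC1A/RIBC1 at 1455 bp lay within it (33.4% narrower). The main ASXL1 peak of UBQLN4/LAMTOR2, which scored below 3100, was 1928 bp wide, and 0.985% of the whole ASXL1 list was wider. O-GlcNAc widths went both ways. The O-GlcNAc peak of EIF2B1/GTF2H3 was narrower than the middle 50% of the 62 with a score of at least 3100 (789 to 1216 bp), and that of UBQLN4/LAMTOR2, at 2414 bp, was wider than 95.2% of them. FOXK1 peaks of 822 to 1172 bp lay within the middle 50% (713 to 1206 bp) of the 461 FOXK1 peaks that score at least as high as EIF2B1/GTF2H3.

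Since the intervals were set from the edges of these peaks, positions are described here only between the peaks of different lists. At EIF2B1/GTF2H3 the 3 peaks were nested, O-GlcNAc inside FOXK1 inside ASXL1, as in 4.32% of the 6247 regions held by all lists, and their centres lay within 12.5 bp of each other. At VPS52/RPS18 the centres lay 25 bp (ASXL1 and FOXK1), 52.5 bp (ASXL1 and O-GlcNAc) and 27.5 bp (FOXK1 and O-GlcNAc) apart, with ASXL1 at the lowest coordinates. TTI2/SNORD13 differed, as its FOXK1 and O-GlcNAc centres were 10.5 bp apart while the ASXL1 centre lay 134.5 bp from FOXK1 and 145 bp from O-GlcNAc, toward higher coordinates. The ASXL1 and O-GlcNAc centres were 90.5 bp apart at SMC1A/RIBC1 and 218 bp apart at UBQLN4/LAMTOR2, with ASXL1 at higher coordinates in both. The ASXL1 centre lay at higher coordinates than the O-GlcNAc centre at 4 of the 5 promoters, EIF2B1/GTF2H3 (12.5 bp) included, and in 49.9% of the 19844 regions held by both. With 5 promoters this count is a description.

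**Figure D4:**
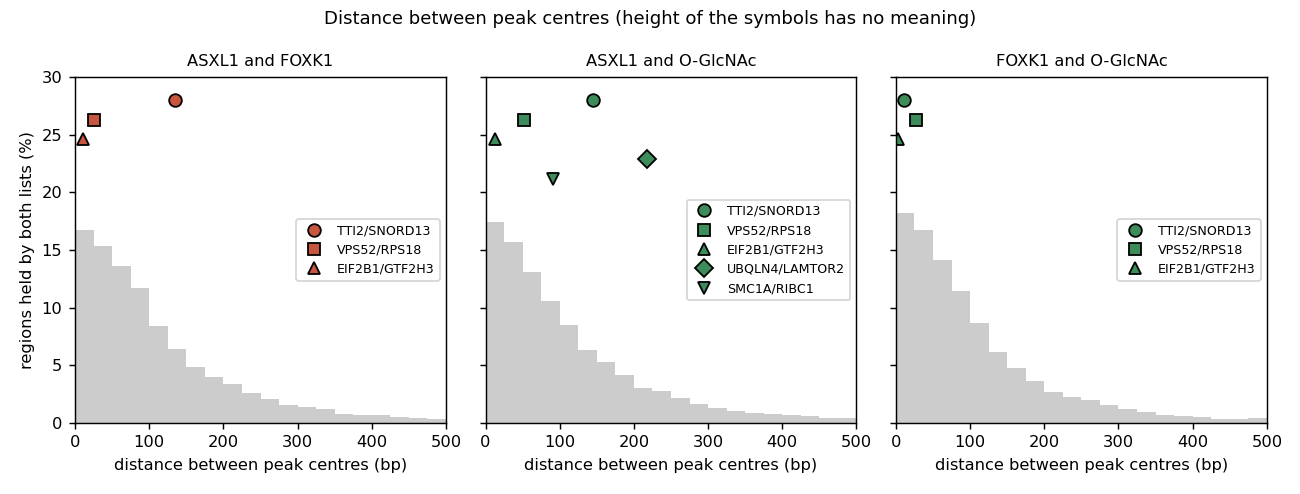
Distance in bp between peak centres for each pair of lists; bars are the percent of regions held by both lists in steps of 25 bp, shown up to 500 bp, and symbols are the promoters (their height has no meaning). EIF2B1/GTF2H3 lies at 12.5 bp or less in each panel, and UBQLN4/LAMTOR2 lies farthest right at 218 bp.

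Over all regions of a pair of lists the median distance between centres was 83.5 bp for ASXL1 and FOXK1, 83.0 bp for ASXL1 and O-GlcNAc and 76.5 bp for FOXK1 and O-GlcNAc. Centres lay within 100 bp in 57.6%, 57.0% and 60.7% of these regions, and in 8 of the 11 comparisons at the promoters. These were 2 of 3, 3 of 5 and 3 of 3 in the same order, so the first pairs of lists were near their background, and 3 promoters cannot show a difference in the last. FOXK1 and O-GlcNAc centres, from different preparations, lay 2.5 bp apart at EIF2B1/GTF2H3, and closer than that in 1.58% of regions.

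The O-GlcNAc peak was the narrowest of the 3 at each of the 3 promoters held by all lists, as in 55.2% of such regions. It also lay inside the FOXK1 peak at each of them, against 46.4% of regions. It lay inside the ASXL1 peak at VPS52/RPS18 and EIF2B1/GTF2H3, against 35.8%, and the FOXK1 peak lay inside the ASXL1 peak at EIF2B1/GTF2H3 alone, against 17.2%. With 3 promoters these counts are a description.

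The surroundings differed between the promoters. Within 100 kb on either side, leaving out the promoter itself, VPS52/RPS18 had 29 ASXL1, 6 FOXK1 and 20 O-GlcNAc peaks, against medians of 13, 3 and 9 around regions held by all 3 lists. EIF2B1/GTF2H3 had 26 ASXL1 and 11 O-GlcNAc peaks but no further FOXK1 peak, and its nearest one lay 187 kb away. TTI2/SNORD13 had 20, 4 and 8 peaks within 100 kb. Within 1 Mb it had 36, 7 and 36, against medians of 94, 21 and 77, and 93.1%, 92.7% and 91.5% of regions held by all 3 lists had more. UBQLN4/LAMTOR2 had 20 ASXL1, 3 FOXK1 and 14 O-GlcNAc peaks within 100 kb and 260, 31 and 128 within 1 Mb. SMC1A/RIBC1 had 27 ASXL1, 4 FOXK1 and 6 O-GlcNAc peaks within 100 kb, so FOXK1 was listed nearby though not at the promoter. Within 1 Mb it had 121, 12 and 54, against the same medians of 94, 21 and 77.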

How the data were processed

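ChIP-seq peak lists of 3 libraries, 1 each for ASXL1, FOXK1 and O-GlcNAc, were used of the 5 libraries in the series; the 2 input libraries were not analysed here. Per the labels, the input of its own chromatin preparation was the control of each library, and each list is of 1 library. The authors deposited 1 score per peak (lowest 50, 2 decimals). Its values have a form that 10 times a negative log10 could give, but its definition is not given in the sources used here. Per the submitters' processing notes, Bowtie2 2.0.0, MACS 1.4 and build hg19 are named, without settings. The depth is unknown.

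With Python 3.11.15 and numpy 2.4.6, starts were counted from 1, and peaks that overlapped by at least 1 bp across lists were merged into regions. The highest peak per list stood for a promoter. The 10 genes, 5 intervals, motifs and the rule to name the genes (the 10, and others only if they could be placed within 5 kb) were chosen with earlier results of these data known. The pairing of genes with hg19 intervals comes from that choice and was not checked against an hg19 annotation. RefSeq (GRCh38.p14) gave names, gene order and promoter windows alone. The merging and ranking code was tested on simulated data. No p-value was computed. The alternatives were other distances, score minimums, overlaps, tie rules and window sizes.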

Additional observations from a re-analysis of the deposited data

How the results depend on the processing

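No paired analysis was possible because only 1 library was made per antibody, which also left no replicate to leave out. The 3 promoters held by all 3 lists were the same 3 under an overlap of 50% of the shorter peak, peak centres within 500 bp, a score of at least 100 and lists limited to their 10000 highest scores. The 27 peaks at the promoters became 16 with overlap alone, 43 within 10 kb and 14 with lists limited to 10000, since each setting admits fewer or more peaks by construction. Of the 13 highest peaks, 10 were in the top 1% of their list by score and 3 by width; the cause was not tested. Centres lay within 100 bp in 8 of 11 comparisons, but both ends did in 4. Motifs in hg19 peak sequences, start sites in hg19 and the other members of the genes' complexes were not run, as they need a genome or annotation of that build. Because a listed score starts at 50 and depth is unknown, a missing FOXK1 peak is a place with no listed peak, not one shown to lack FOXK1.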
